A study of Mus musculus with 8 samples.

Results

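The kinesin, dynein and dynactin genes of dorsal root ganglion neurons were taken from the deposited count table by symbol: every row beginning with Kif or Klc and a digit, or with Dync, Dynl or Dctn, apart from Kifap3 and pseudogenes. Of 43372 gene symbols 64 matched, and 42 reached the minimum of 10 raw counts in at least 4 of the 8 libraries. These 42 motor genes comprised 25 kinesins and kinesin light chains and 17 dynein and dynactin genes, and all 42 were also kept by the expression filter of the test. The question was whether 2 populations of sensory neurons differ in the machinery that carries cargo along their axons.

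The series compared neurons labelled through somatostatin-driven and Trpv1-driven Cre recombinase in C57Bl/6 mice. The Sst group came from Sst-IRES-Cre animals, genotype Ssttm2.1(cre)Zjh/J, and the Trpv1 group from Trpv1-IRES-Cre animals, genotype Trpv1tm1(cre)Bbm/J. Pups of both lines were injected intraperitoneally at postnatal day 2 with an adeno-associated virus of serotype AAV9, carrying either CAG-FLEX-eGFP-WPRE or else CAG-FLEX-tdTomato-WPRE, whose fluorescent protein is switched on only where Cre has acted. At 3 to 5 weeks of age ganglia of mice of both sexes were digested for 30 minutes in collagenase and dispase, and 150 to 250 fluorescent cells per mouse were collected by hand. There were 4 libraries per group, made after whole-transcriptome amplification. The labels call them independent samples, and say that a picking session gave a sample of each genotype, so the groups share sessions. They do not say which libraries share a session or which mice fed each library, so session is not a term of the fit. Each library is therefore a pool of cells picked from those that the Cre line and the virus marked. The Trpv1 line can mark several classes of sensory neuron, and a pool from the Sst line may also be mixed. In such a pool, fewer cells that carry a transcript and less transcript per cell cannot be told apart.

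Kinesins and cytoplasmic dynein are ATP-driven motors that walk on microtubules. Most kinesins move toward the plus ends, which in an axon point away from the cell body, so they carry vesicles, mitochondria and channels outward; dynein, assisted by the dynactin complex, moves toward the minus ends and returns signalling endosomes and worn organelles to the soma. Sensory neurons of the ganglion depend heavily on both, since their axons reach from the spinal cord to the skin, and mutations in several of these genes cause peripheral neuropathy in people.

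The part of a kinesin that binds ATP is a loop in the motor domain, the P-loop, and its codons show how alike the members are. The loop was searched in frame, on the coding strand, as GGNCANACNNNNNNNGGNAAN, a pattern of 21 bases. It was found in 46 of 21504 mouse coding sequences (0.214%), 33 of them named Kif, and in 17 of the 22 Kif members. Kif18a, Kif20b, Kif22, Kif23 and Kif26b lacked these letters, as did all 20 members that are light chains, dynein or dynactin genes. Shown here are 6 members on which the comparison turns: Kif21b, the only member that passed the test, its paralog Kif21a, and a pair of paralogs each from kinesin-2 and kinesin-1. Capitals mark the loop, with 18 bases on each side; the sequences are from the GRCm38 genome and the GENCODE M21 annotation, written 5′ to 3′ on the coding strand.
Kif21b: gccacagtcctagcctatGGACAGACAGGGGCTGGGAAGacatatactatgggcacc
Kif21a: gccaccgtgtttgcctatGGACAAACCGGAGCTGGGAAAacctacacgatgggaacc
Kif3a: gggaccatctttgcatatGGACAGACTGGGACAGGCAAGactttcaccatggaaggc
Kif3c: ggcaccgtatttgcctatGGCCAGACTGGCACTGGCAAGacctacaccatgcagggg
Kif5a: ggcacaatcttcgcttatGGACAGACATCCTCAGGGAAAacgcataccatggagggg
Kif5c: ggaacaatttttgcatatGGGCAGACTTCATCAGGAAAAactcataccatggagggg

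The stretch of Kif21b lies in exons 2 and 3, from chr1:136144798-136145162 on the plus strand, with an intron inside that span, and covers codons 81 to 99. That of Kif21a spans exons 2 and 3 at chr15:90997693-90997856 on the minus strand. The Kif3a stretch spans chr11:53570809-53578899 (plus strand, exons 2 and 3) and that of Kif3c lies within exon 2 at chr12:3366251-3366307 (plus strand). Those of Kif5a, at chr10:127247625-127248083 (minus strand), and Kif5c, at chr2:49680185-49688655 (plus strand), span exons 3 and 4. Over these 57 bases Kif21b and Kif21a differed at 12 positions, 4 of them in the loop (78.9% identical), Kif5a and Kif5c at 9, and Kif3a and Kif3c at 12. Across whole transcripts, no stretch of 50 bases of Kif21b, Kif21a, Kif5a, Kif5c, Kif3a, Kif3b or Kif1b occurred in a transcript of another gene. For Kif3c 12.2% of such stretches did, most of them in the predicted gene Gm48512.

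Library totals ran from 9021125 to 12153109 counts in the Sst group and from 7419027 to 9568508 in the Trpv1 group, and the motor genes took 0.938% to 1.67% of them. Levels are given as CPM, the usual depth-scaled count unit, with each library total scaled by edgeR's trimmed-mean (TMM) factor, and differences as log2 fold changes of Sst over Trpv1, so that positive values mean higher in the Sst libraries. Differences were tested with edgeR's quasi-likelihood F test over 11828 genes, two-sided. P-values were adjusted by the Benjamini-Hochberg method for all 11828 genes, and the threshold was 0.05. Sensory neuron markers were abundant in all 8 libraries, with 7 genes summing to 5190 to 5856 CPM in the Sst and 2862 to 3447 CPM in the Trpv1 libraries. Most of that gap was Snap25 at 4052 ± 372 against 2000.02 ± 271 CPM; it alone of the 7 genes passed (log2 fold change 1.02, adjusted p = 3.63e-05 by edgeR), and Rbfox3 (-0.15), Isl1 (-0.26) and Elavl4 (-0.32) had negative values. The genes behind the labels, Sst (log2 fold change 1.07, edgeR adjusted p = 0.0753) and Trpv1 (-0.95, adjusted p = 0.109), did not pass. Libraries also differed in other features, some of them unevenly split between the groups and so partly confounded with group. Transcripts of the pituitary hormones Gh and Prl were present in Sst replicate 2 and in Trpv1 replicates 1 to 3, where 7 pituitary genes summed to as much as 457 and 1750 CPM, and Xist was absent only from Trpv1 replicates 1 and 2. Mitochondrial genes took 40.2% of counts in Trpv1 replicate 3 and 21.7% to 33.04% in the others. Satellite glia markers summed to 433 to 890 CPM in the Sst and 333 to 776 CPM in the Trpv1 libraries, and Schwann cell markers to 368 to 662 and 605 to 811 CPM. No glial gene that was tested passed, and the test covered 6 of 6 satellite glia and 5 of 7 Schwann cell genes.

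Among the 42 motor genes Kif21b alone passed the test, higher in the Sst libraries, and none was lower. That is 2.38% of the members, beside 6.35% of all genes tested (3.04% higher and 3.31% lower). By the unadjusted p, 8 members (19.0%) were higher and 3 (7.14%) lower at a threshold of 0.05, beside 10.3% and 10.1% of all genes. The log2 fold change was above 0 for 24 members (57.1%, beside 50.4% of all genes) and below 0 for 18, with a median of 0.13 (0.01 over all genes). Summed over the 42 members, CPM ran from 13227 to 15577 in the Sst and from 11392 to 13121 in the Trpv1 libraries. The difference in that sum was not tested. CPM of the 2 groups did not overlap for 4 members (9.52%, beside 11.1%): Kif21b and Dynll2 lay above in the Sst group (5.43% of all genes did), and Dynll1 and Dctn4 lay above in the Trpv1 group (5.71%). How closely the libraries bounded a difference depended on abundance. Of the 31 members with a mean of at least 20 CPM, none passed (9.43% of the 5216 genes at that level did), their log2 fold changes ran from -0.94 to 0.89, and the 95% interval lay between -1 and 1 for 18 of them. Of those 31, 10 (32.3%) had an unadjusted p under the threshold, beside 25.2% of genes at that level, 22.6% higher and 9.68% lower against 12.5% and 12.7%. Their log2 fold change was above 0 for 67.7%, beside 49.5% of genes at that level. The 10 scarcer members other than Kif21b had intervals that all reached outside -1 to 1. The spread between replicates went with abundance. The median biological coefficient of variation was 27.4% for the 31 abundant members (37.0% over the 5216 genes at that level) and 104% for the 10 scarcer ones, where it ran from 53.7% to 151% (median 86.7% over the 6612 genes at that level).

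**Figure D1:**
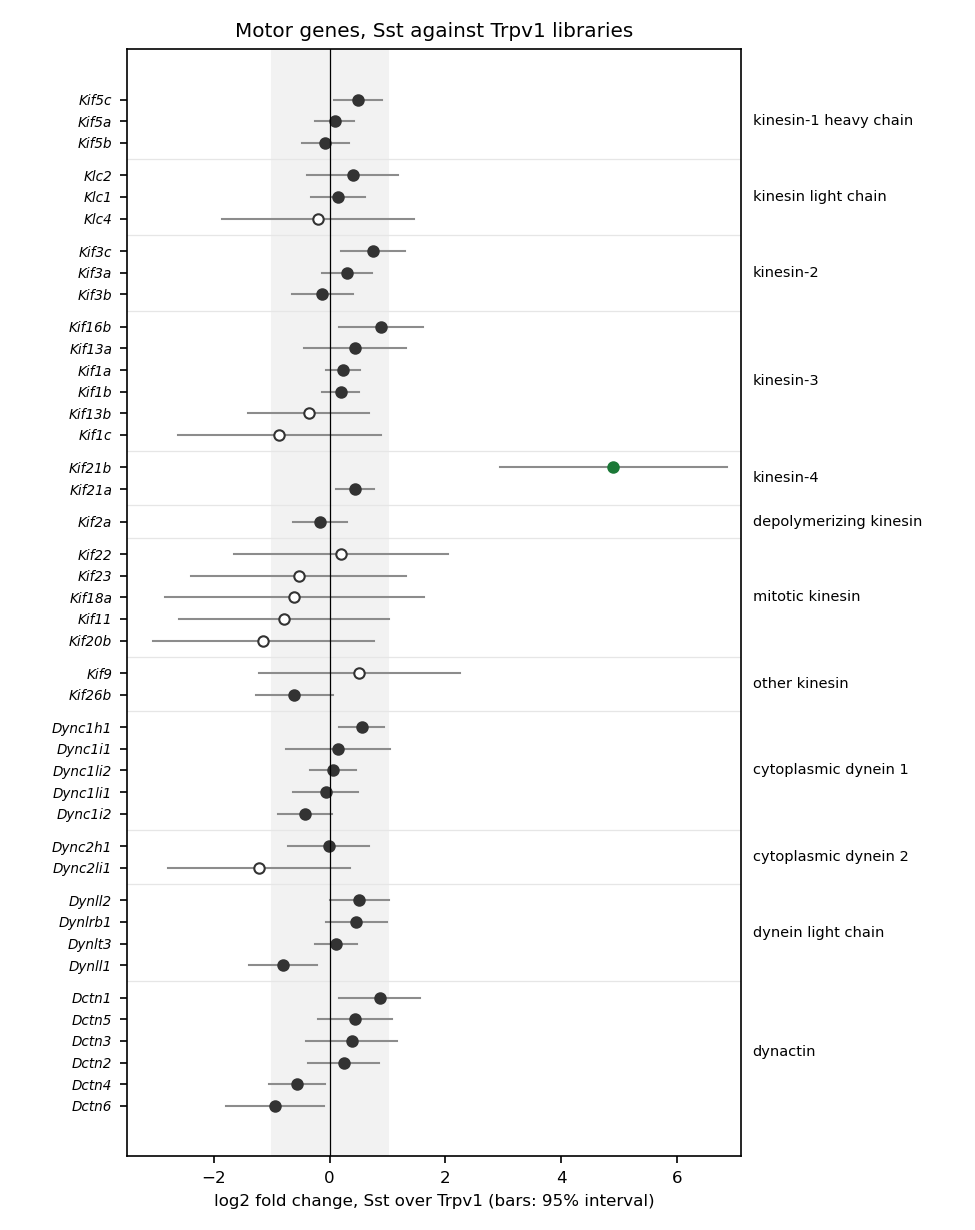
Log2 fold change of each of the 42 motor genes, Sst over Trpv1 (x axis), with 95% intervals as bars, grouped by role. Filled points have a mean of at least 20 CPM, apart from Kif21b in green, the only gene past the test at 4.89; the shaded band runs from -1 to 1.

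Of the kinesin-4 motors 1 of 2 passed. Kif21b, a neuronal kinesin-4 that travels along axons and dendrites and slows the growth of microtubule ends, lies at chr1:136131389-136177998 on the plus strand. Its deposited counts were 132, 69, 446 and 260 in Sst replicates 1 to 4 and 9, 0, 16 and 0 in Trpv1 replicates 1 to 4. In CPM these were 13.1, 7.52, 41.3 and 23.6 against 0.931, 0, 2.03 and 0. Every Sst library thus lay above every Trpv1 library, and the lowest Sst value was above the highest Trpv1 value by more than the range of the Trpv1 group. A count of 0 allows up to 0.382 CPM in Trpv1 replicate 2 and 0.317 CPM in replicate 4, taking 3 counts as the limit and covering counting error only. Means were 21.4 ± 14.9 and 0.740 ± 0.966 CPM (SD, n = 4 each), a 28.9-fold ratio, and the fitted log2 fold change was 4.89 (SE 0.956, 95% interval 2.93 to 6.85, edgeR adjusted p = 0.00137). Without Trpv1 replicate 3, which held 16 of the 25 counts of its group, the log2 fold change was 5.97 (adjusted p = 0.0107). Because only Trpv1 replicate 3 in that group reached 10 counts, Kif21b entered the list through the group in which it was high. The call was lost with limma voom (log2 fold change 5.49, adjusted p = 0.0586) and in the 6 libraries that hold Xist (4.56, adjusted p = 0.0697). It was also not made in the 4 libraries free of Gh and Prl beyond a single count, but that setting has only 1 Trpv1 library, with no Kif21b count, so it gives no usable fold change or test of this gene.

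Markers of large myelinated afferents were also higher in the Sst libraries. Their list of 6 genes (Nefh, Pvalb, Spp1, Ntrk3, Ntrk2 and Runx3) summed to 1373, 1598, 1883 and 1055 CPM in Sst replicates 1 to 4 and to 430, 247, 410 and 214 CPM in Trpv1 replicates 1 to 4. All 6 passed as higher in the Sst libraries, with Nefh at a log2 fold change of 1.94 and Ntrk3 at 4.01. Runx3 was at 0 in all 4 Trpv1 libraries, so it entered the test through the Sst group alone. The list was chosen with earlier results of these data known, so its passing is no independent result. Within the Sst group the marker sum and Kif21b were both highest in replicate 3 (1883 and 41.3 CPM). The marker sum was lowest in replicate 4, while Kif21b was lowest in replicate 2 (7.52 CPM). In the Trpv1 group Kif21b had counts only in replicates 1 and 3, the libraries with the larger marker sums (430 and 410 CPM). The part of these markers in the Kif21b difference was not tested.

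Kif21a, the paralog of Kif21b and a broadly expressed neuronal motor, lies at chr15:90933276-91049948 on the minus strand. It measured 1619, 1603, 1913 and 1339 CPM in Sst replicates 1 to 4 and 1053, 1396, 1261 and 1086 CPM in the Trpv1 replicates. The groups overlapped slightly, since Sst replicate 4 fell below Trpv1 replicate 2. Means were 1619 ± 235 and 1199 ± 160 CPM, and the log2 fold change was 0.43 (95% interval 0.10 to 0.76, edgeR adjusted p = 0.111). With limma voom, a setting in which Kif21b missed the threshold, Kif21a passed (0.47, adjusted p = 0.0321). That was the only 1 of 20 alternatives in which Kif21a passed. Per kilobase of exon, Kif21a was far more abundant than Kif21b in both groups: Kif21b made up 0.685% ± 0.415 of the pair in the Sst group and 0.0331% ± 0.0414 in the Trpv1 group (SD, n = 4).

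**Figure D2:**
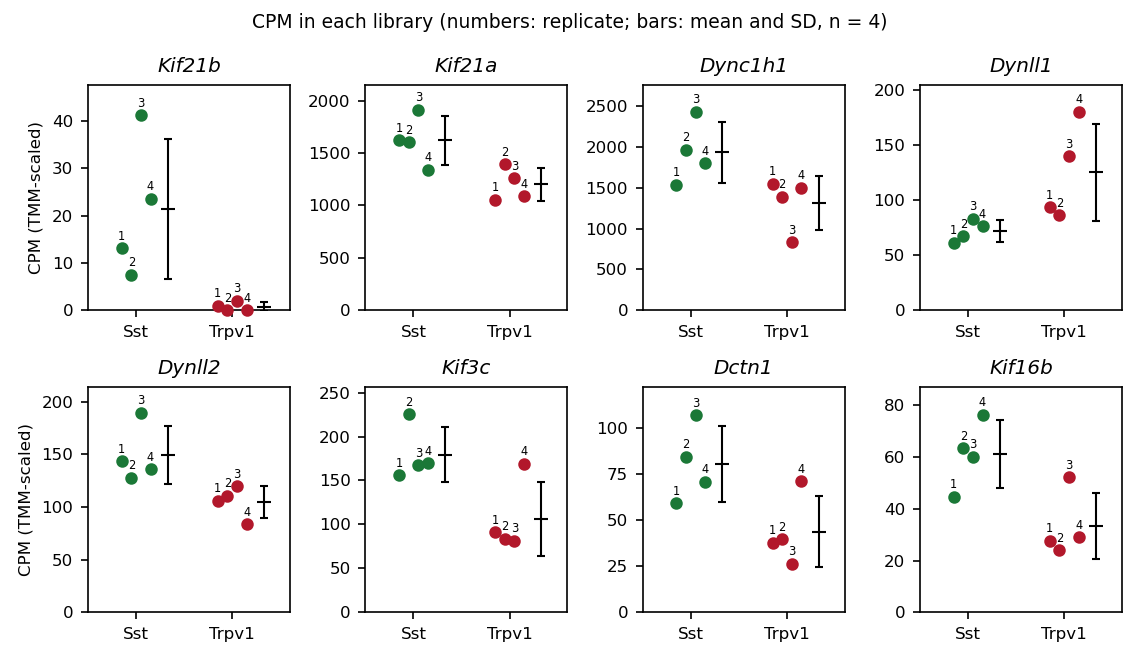
CPM of 8 motor genes in each library (y axes from 0), with replicate numbers above the points and the mean ± SD (n = 4) beside them. Kif21b, Dynll1 and Dynll2 separate the groups completely; in Kif3c and Dctn1 Trpv1 replicate 4 lies within or beside the Sst values.

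Kinesin-1 is the conventional motor of fast anterograde transport, a pair of heavy chains with cargo-binding light chains. The neuronal heavy chain Kif5a measured 1118, 1253, 1378 and 1197 CPM in the Sst replicates and 1057, 1097, 1011 and 1476 CPM in the Trpv1 replicates, and the groups overlapped. Its means of 1237 ± 109 and 1160 ± 213 CPM gave a log2 fold change of 0.09 with a 95% interval of -0.25 to 0.43 (edgeR adjusted p = 0.812). Kif5b, the ubiquitous heavy chain, was at 672 ± 115 and 708 ± 176 CPM (log2 fold change -0.08, interval -0.48 to 0.33). Kif5c, the other neuronal heavy chain, measured 509, 541, 667 and 381 CPM in the Sst and 449, 357, 369 and 316 CPM in the Trpv1 libraries. Only Sst replicate 4 fell within the Trpv1 range, and the difference did not pass (log2 fold change 0.49, interval 0.08 to 0.91, edgeR adjusted p = 0.158). Per length, Kif5a made up 52.8% ± 2.95 of the heavy chain transcripts in the Sst and 53.9% ± 7.26 in the Trpv1 libraries, Kif5b 25.3% ± 5.31 and 28.9% ± 6.85, and Kif5c 21.8% ± 3.89 and 17.2% ± 3.82. Of the light chains, Klc1 led with 324 ± 87.6 and 293 ± 62.4 CPM (log2 fold change 0.14, interval -0.33 to 0.61), Klc2 reached 49.8 ± 14.1 and 37.2 ± 18.1 CPM (0.40, adjusted p = 0.62), and Klc4 was scarce at 4.30 ± 3.29 and 4.68 ± 3.56 CPM.

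Kinesin-2 motors pair Kif3a with Kif3b or Kif3c and carry vesicles and ciliary cargo. Kif3c, the neuronal partner, measured 156, 225, 167 and 170 CPM in the Sst replicates and 91.1, 84.0, 81.5 and 169 CPM in the Trpv1 replicates. Trpv1 replicate 4 stood among the Sst values, and the other 3 Trpv1 libraries lay below all of them. The log2 fold change was 0.75 (SE 0.266, interval 0.20 to 1.30) and did not pass (edgeR adjusted p = 0.0984), although without Trpv1 replicate 4 it was 1.08 with an adjusted p of 0.0170. The common subunit Kif3a, at 300.4 ± 31.1 and 245 ± 52.1 CPM (log2 fold change 0.29, adjusted p = 0.466), and Kif3b, at 111 ± 20.6 and 121 ± 22.2 CPM (-0.12, adjusted p = 0.843), did not pass either. The ratio of Kif3c to Kif3b per length was 1.31, 1.36, 1.32 and 0.982 in the Sst libraries and 0.651, 0.599, 0.529 and 0.838 in the Trpv1 libraries. That ratio, picked after the values were seen and not tested, did not overlap between the groups. It was one of several ratios formed between members. Dynll1 to Dynll2 did not overlap either, whereas Kif21a to Kif5a, Dync1h1 to Kif5a, Kif1a to Kif1b and Dctn1 to Dctn2 did. Kifap3, the accessory subunit that joins these motors to cargo, had a log2 fold change of -0.04 (adjusted p = 0.926). Kif17, a homodimeric member of the same family, missed the count minimum: it had 8, 7, 1 and 0 counts in the Sst and 0, 1, 13 and 128 in the Trpv1 libraries, nearly all from Trpv1 replicate 4.

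Kinesin-3 motors include the fastest carriers of synaptic vesicle precursors and of dense-core vesicles, which hold neuropeptides. Kif1a measured 2094, 2455, 2463 and 2432 CPM in the Sst and 2091, 2134, 1674 and 2126 CPM in the Trpv1 replicates. Apart from Sst replicate 1, the Sst values lay above all Trpv1 values, yet the log2 fold change was only 0.23 (interval -0.06 to 0.53, edgeR adjusted p = 0.375). Kif1b, which carries mitochondria and vesicle precursors, was at 2001 ± 290 and 1754 ± 194 CPM (0.19, interval -0.12 to 0.50). Per length Kif1a held 68.9% ± 3.42 of the 3 Kif1 genes in the Sst and 68.1% ± 1.98 in the Trpv1 libraries, a difference smaller than the spread of either group. Kif1c was scarce, at 3.39, 3.49, 9.73 and 1.72 CPM against 25.9, 1.28, 3.68 and 1.06 CPM. Its negative log2 fold change of -0.87 came with Trpv1 replicate 1, and without that library the value was 1.26. Kif16b, which moves endosomes, measured 44.7, 63.3, 60.1 and 76.4 CPM in the Sst and 27.6, 24.0, 52.2 and 29.1 CPM in the Trpv1 replicates, overlapping through Trpv1 replicate 3 (log2 fold change 0.89, interval 0.16 to 1.62, adjusted p = 0.142). Kif13a, at 45.0 ± 20.3 and 33.3 ± 18.9 CPM (0.44, adjusted p = 0.618), and Kif13b, at 17.2 ± 6.64 and 21.7 ± 12.1 CPM (-0.36, adjusted p = 0.748), spread widely within both groups.

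Among the other kinesins, Kif2a, which takes microtubules apart and limits axon branching, was at 178 ± 22.6 and 200.3 ± 35.4 CPM (log2 fold change -0.17, interval -0.63 to 0.29, edgeR adjusted p = 0.737). Kif26b reached 54.7 ± 18.9 and 83.4 ± 22.4 CPM (-0.61, adjusted p = 0.291). The kinesins that serve cell division were barely present: Kif11, Kif18a, Kif20b, Kif22 and Kif23 had group means of 1.26 to 3.67 CPM, and none of the 5 passed. Proliferation markers were low too, with 10 genes summing to 7.69 to 21.8 CPM in the Sst and 4.99 to 49.4 CPM in the Trpv1 libraries. Cdk1 was at 0 in all 4 Trpv1 libraries and Aurkb at 0 in all 4 Sst libraries. Mki67 was present in all 8 libraries, at 14.4, 7.19, 6.39 and 3.72 CPM in the Sst and 22.4, 2.05, 29.4 and 4.78 CPM in the Trpv1 replicates. Cenpf reached 11.2 CPM in Sst replicate 2 and Tpx2 11.9 CPM in Trpv1 replicate 1. The part of the proliferation markers in the mitotic kinesin values was not tested. Several of these genes sit at the edge of the list. Just inside it, Kif18a had 3, 0, 0 and 71 counts in the Sst and 25, 25, 45 and 0 in the Trpv1 replicates, Kif22 had 9, 8, 35 and 17 against 31, 0, 8 and 12, and Kif20b had 23, 0, 6 and 24 against 28, 0, 33 and 39. Just outside, 5 genes reached 10 counts in 3 libraries: Kif6, Kif20a, Kif24, Dynlt1b and Dynlt1c. Of these, Kif24 had 30, 1, 9 and 36 counts in the Sst and 6, 4, 2 and 26 in the Trpv1 replicates, and Kif20a had 4, 4, 0 and 15 against 35, 0, 10 and 1. Kif6 had 3, 0, 0 and 16 against 0, 35, 29 and 0. Kif4, a motor of mitotic chromosomes, was further out at 2, 0, 1 and 0 against 94, 0, 4 and 10 counts. Of the 22 symbols left out, 4 (Kif2b, Kif7, Kif12 and Kif16bos) had no count in any library. Dynlt1b, with 1, 15, 2 and 11 against 1, 5, 15 and 7 counts, and Dynlt1c, with 8, 20, 4 and 5 against 17, 65, 1 and 2, belong to a cluster of near-identical copies. For Dynlt1a, Dynlt1b, Dynlt1c and Dynlt1f, 67.7% to 93.7% of 50-base stretches recur in another gene, so their counts are uncertain.

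Cytoplasmic dynein 1 is the retrograde motor of the axon. Its heavy chain Dync1h1, which holds the motor domain, lies at chr12:110601452-110666945 on the plus strand. It measured 1537, 1965, 2434 and 1803 CPM in the Sst replicates and 1550, 1391, 832 and 1501 CPM in the Trpv1 replicates. The groups met at Sst replicate 1 and Trpv1 replicate 1, and the lowest value belonged to Trpv1 replicate 3, the library with the largest mitochondrial share; the part of that share was not tested. Means of 1935 ± 376 and 1318 ± 331 CPM gave a log2 fold change of 0.55 (SE 0.186, interval 0.17 to 0.94), which did not pass (edgeR adjusted p = 0.0789); with no filter on low counts it passed (0.59, adjusted p = 0.0250). The smaller chains link the motor to dynactin and cargo, and none of them passed. Dync1i2, the main intermediate chain, was at 291 ± 82.6 and 389 ± 65.5 CPM (log2 fold change -0.42, interval -0.88 to 0.05), and the neuronal Dync1i1 at 23.9 ± 6.49 and 21.7 ± 5.88 CPM (0.15, interval -0.75 to 1.04). The light intermediate chains had values near 0, with Dync1li1 at 82.7 ± 13.02 and 86.7 ± 14.0 CPM (-0.07) and Dync1li2 at 437 ± 73.3 and 421 ± 40.3 CPM (0.05). Whether Dync1h1 differed from its partner chains was not tested. Dynein 2, the retrograde motor of cilia, was also detected: Dync2h1 was at 54.6 ± 20.5 and 55.1 ± 14.0 CPM (-0.02, interval -0.72 to 0.69), and Dync2li1 at 3.22 ± 1.95 and 6.98 ± 5.37 CPM (-1.22, adjusted p = 0.393).

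Dynein light chains bind the intermediate chains, and those of the LC8 family, Dynll1 and Dynll2, also act as dimerization hubs for many other proteins. Dynll1 (chr5:115297110-115300999, minus strand) measured 61.4, 67.1, 83.3 and 76.3 CPM in the Sst replicates and 93.9, 86.7, 140 and 181 CPM in the Trpv1 replicates. All 4 Trpv1 libraries lay above all Sst libraries. The log2 fold change was -0.80 (SE 0.284, interval -1.38 to -0.21) and did not pass (edgeR adjusted p = 0.0977). Dynll2 (chr11:87979525-87987533, minus strand) measured 144, 128, 190 and 136 CPM in the Sst and 106, 111, 120 and 83.8 CPM in the Trpv1 replicates, the opposite order with no overlap. Its log2 fold change was 0.51 (SE 0.246, interval 0.00 to 1.02) and did not pass either (edgeR adjusted p = 0.242). Set against each other per length, Dynll1 made up 23.1%, 27.0%, 23.6% and 28.3% of the LC8 pair in the Sst libraries and 38.3%, 35.5%, 45.1% and 60.2% in the Trpv1 libraries. The means were 25.5% ± 2.52 and 44.8% ± 11.1 (SD, n = 4), and per length Dynll2 was the more abundant paralog in every library except Trpv1 replicate 4. That order and the shares depend on the lengths used, unions of annotated exons of 3890 bases for Dynll1 and 2736 for Dynll2. In CPM without length scaling, Dynll1 was also above Dynll2 in Trpv1 replicate 3 (140 against 120 CPM). The share was formed after the values of both genes were seen and was not tested. For Dynll1, 3.48% of 50-base stretches recur in other genes, and for Dynll2 none. With a term for Xist, Dynll1 passed at a log2 fold change of -1.15 (edgeR adjusted p = 0.0363), while Dynll2 missed the threshold in all 20 alternatives. The remaining light chains were Dynlrb1, at 295 ± 63.2 and 213 ± 78.9 CPM (0.46, adjusted p = 0.325), and Dynlt3, an X-linked gene, at 564 ± 37.2 and 524 ± 66.7 CPM (0.11, interval -0.26 to 0.47).

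**Figure D3:**
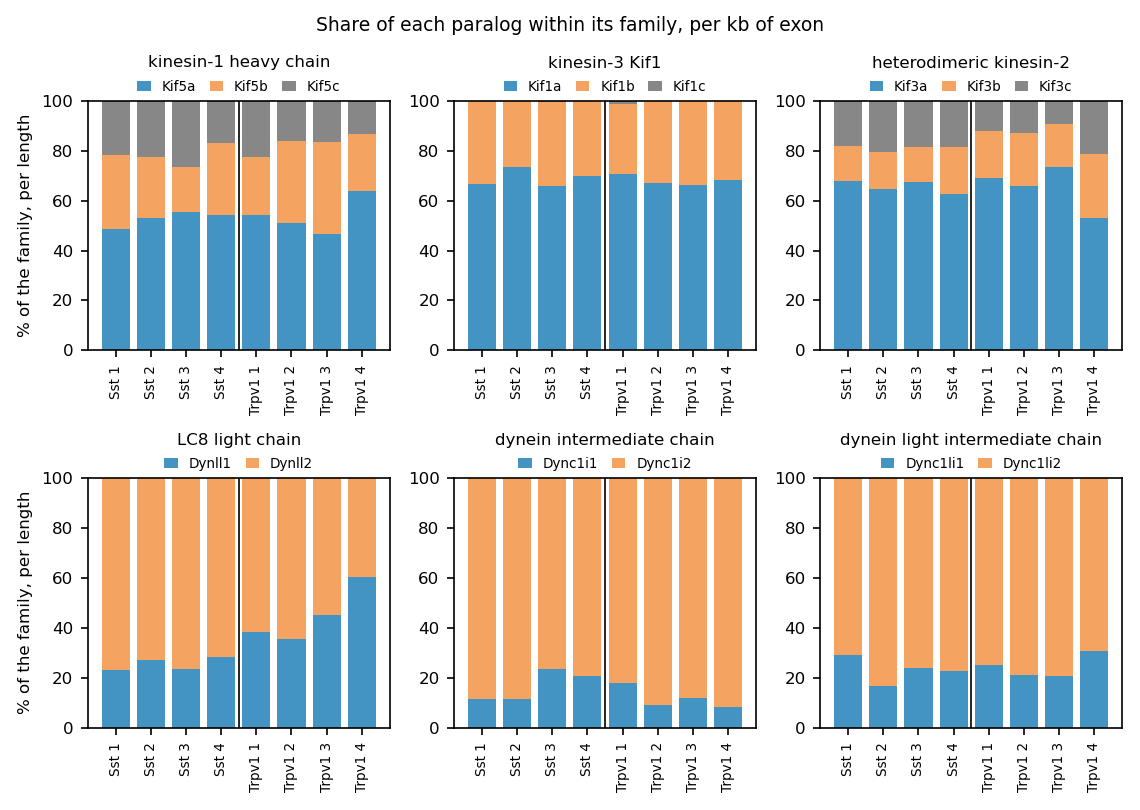
Share of each paralog among the transcripts of its family, per kilobase of exon (y axis, percent), in each of the 8 libraries (x axis), for 6 families. Dynll1 takes 23.1% to 28.3% of the LC8 pair in the Sst libraries and 35.5% to 60.2% in the Trpv1 libraries, while the mean shares of Kif5a and Kif1a differ between groups by less than their SD.

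Dynactin activates dynein and tethers it to microtubules and cargo. Dctn1, the p150 subunit with the microtubule-binding domain, measured 59.1, 84.5, 107 and 70.9 CPM in the Sst replicates and 37.9, 39.5, 26.4 and 71.0 CPM in the Trpv1 replicates. Only Trpv1 replicate 4 reached the Sst values (log2 fold change 0.87, SE 0.338, interval 0.17 to 1.57, edgeR adjusted p = 0.133), and without it the log2 fold change was 1.23 with an adjusted p of 0.0459. Dctn2, or dynamitin, which joins the arm to the filament, was at 69.2 ± 14.9 and 58.2 ± 7.42 CPM (0.25, interval -0.37 to 0.86). The pointed-end subunits Dctn4, Dctn5 and Dctn6 had fold changes of unlike sign, and none passed. Dctn4 measured 172, 166, 161 and 181 CPM in the Sst and 200.3, 195, 236 and 371 CPM in the Trpv1 replicates, with every Trpv1 library above every Sst library; its log2 fold change of -0.56 (interval -1.05 to -0.08) did not pass (edgeR adjusted p = 0.166). Dctn6, chosen after its values were seen, had 27.8, 36.6, 22.4 and 26.1 CPM against 41.3, 19.7, 66.1 and 87.8 CPM (-0.94, interval -1.79 to -0.10, edgeR adjusted p = 0.187). Dctn5 was at 73.0 ± 13.5 and 54.2 ± 13.9 CPM (0.43, interval -0.21 to 1.07), and Dctn3, of the shoulder, at 98.3 ± 52.3 and 74.7 ± 27.3 CPM (0.38, interval -0.41 to 1.17).

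Per kilobase of exon the leading motor transcripts were the same 5 genes in both groups. In the Sst libraries Dynlrb1 came first at 293 ± 62.7 CPM per kb, then Kif1a at 253 ± 19.2, Kif21a at 250 ± 36.2 and Dynlt3 at 219 ± 14.4 CPM per kb, each overlapping its neighbour. Kif5a followed at 177 ± 15.6 CPM per kb, below all Dynlt3 values and above all values of Dync1h1, which was sixth at 124 ± 24.0 CPM per kb. In the Trpv1 libraries the order began with Kif1a at 215 ± 23.8, Dynlrb1 at 211 ± 78.2, Dynlt3 at 203 ± 25.9, Kif21a at 185 ± 24.7 and Kif5a at 166 ± 30.5 CPM per kb, all overlapping their neighbours, and Kif1b came next at 99.6 ± 11.0 CPM per kb, apart from Kif5a. Dync1h1 stood at 84.2 ± 21.1 CPM per kb there. At the low end Kif21b was at 1.76 CPM per kb in the Sst and 0.0608 CPM per kb in the Trpv1 libraries. These lengths are unions of annotated exons and do not weigh which isoforms were present.

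**Figure D4:**
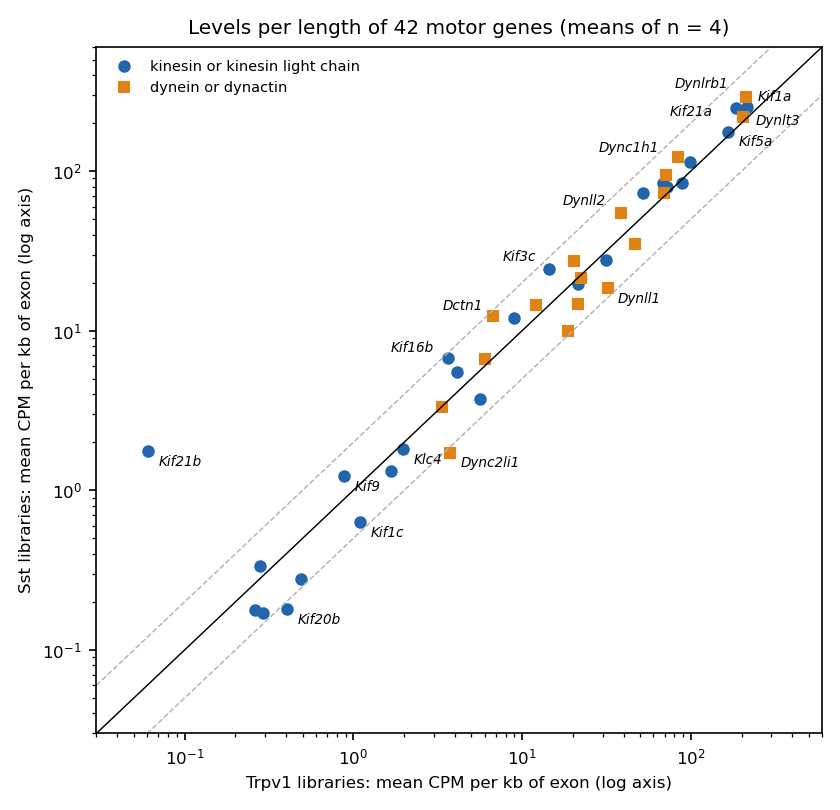
Mean level per kilobase of exon of the 42 motor genes in the Trpv1 (x) and Sst (y) libraries, both on log axes, in CPM per kb (means of n = 4). The solid line marks equal levels and the dashed lines a factor of 2; Kif21b lies far above the line at 1.76 against 0.0608, and the abundant motors lie along it.

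Beyond the motors, other genes of motor-driven transport were read from lists of adaptors and of microtubule proteins. Of 46 adaptor and regulator genes 44 were in the table and 39 were tested: 3 were higher, 1 was lower and 35 did not pass, which is 10.3% beside 6.35% of all genes, with a median log2 fold change of 0.12. Of its 33 genes with a mean of at least 20 CPM, 12.1% passed, beside 9.43% of all genes at that level. Trak1, which couples mitochondria to kinesin-1 and dynein, was higher at 431 ± 76.6 against 215 ± 42.3 CPM (log2 fold change 1.01, SE 0.213, edgeR adjusted p = 0.00421). The scaffolds Mapk8ip2, at 322 ± 47.5 against 174 ± 22.5 CPM (0.89, adjusted p = 0.0104), and Mapk8ip1, at 46.3 ± 8.84 against 15.7 ± 4.59 CPM (1.55, adjusted p = 0.0214), both known to bind kinesin light chains, were also higher, and Mapk8ip1 lost its call in 8 of 20 alternatives. Ppfia2, a liprin that binds Kif1a and organizes presynaptic sites, was lower at 123 ± 23.7 against 246 ± 16.9 CPM (log2 fold change -1.005, adjusted p = 0.00667). In each of these 4 genes the groups did not overlap, beside 11.1% of all genes. They were named because they passed, so this is no separate result. Pafah1b1, the dynein regulator Lis1, picked for its role after the values were seen, did not pass (-0.37, adjusted p = 0.221).

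The second list held the microtubule tracks and their binding proteins. Of 38 tubulin and microtubule-associated protein genes 37 were tested: 1 was higher, 5 were lower and 31 did not pass, which is 16.2% beside 6.35% of all genes, with a median log2 fold change of 0.02. Of its 32 genes with a mean of at least 20 CPM, 18.8% passed, beside 9.43% at that level. Map1a, a stabilizer of mature axons, was higher at 3745 ± 743 against 1892 ± 251 CPM (log2 fold change 0.98, SE 0.155, edgeR adjusted p = 0.000185). Dclk1, a doublecortin-like protein that binds microtubules and regulates kinesin-3, was lower at 82.8 ± 9.20 against 381 ± 84.5 CPM (-2.20, SE 0.231, adjusted p = 8.60e-07). Stmn1, which sequesters tubulin, was lower at 61.2 ± 17.2 against 163 ± 36.3 CPM (-1.41, adjusted p = 0.00199), and Mapt, the axonal protein tau, at 233 ± 14.2 against 453 ± 84.4 CPM (-0.96, adjusted p = 0.00348). Map9 (-0.97, adjusted p = 0.0229) and Map7d2, a recruiter of kinesin-1 (-0.78, adjusted p = 0.0480), were lower as well, but Map9 lost its call in 9 and Map7d2 in 13 of 20 alternatives. Map1b, Tuba4a and Tubb4a were picked after the values were seen. Map1b, a structural protein of axons, had a log2 fold change of 0.02 (interval -0.20 to 0.23). Tuba4a had the smallest adjusted p of the tubulin genes, none of which passed (1.12, edgeR adjusted p = 0.0689). Tubb4a came close to it in the opposite direction (-0.60, edgeR adjusted p = 0.0698). The part of the large myelinated afferent markers, which were higher in all 4 Sst libraries, in these differences was not tested.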

How the data were processed

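The values are raw read counts per gene symbol, not normalized, as the authors deposited them, in 1 table with a column for each of the 8 libraries; 0 columns were left unused. Per the submitters' processing notes, bcl2fastq 2.17, Trimmomatic 0.33 and featureCounts were used on GRCm38. The aligner, the annotation, read length, strand use and the treatment of multiple matches were not given in the sources used here. Genes with close copies are uncertain.

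The whole table was fitted with edgeR 4.0.16 (R 4.3.3): TMM scaling, filterByExpr at a minimum count of 10 (11828 genes kept), robust dispersion, and the quasi-likelihood F test in its current, non-legacy form with group as the sole term. Standard errors come from the fold change and F statistic. P-values measure the spread between these samples only. DESeq2 1.42.0, limma 3.58.1, other filters and scaling, the replicate block, Xist settings and leaving out each library were alternatives. On simulated counts for 11828 genes, the test recovered 7% of 2-fold and 58% of 4-fold changes, and 8 of its 73 calls were false. The changed genes were drawn at random from all genes tested, whose median biological coefficient of variation was 60.2%. For the 31 abundant motor genes it was 27.4%, so these recovery rates do not describe them.

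Coordinates, exon lengths and sequences come from GENCODE M21. Named were members past the test, those with an unadjusted p under 0.05 and no overlap, a list of well-known motors, and genes near the count minimum; of the other lists, genes past the test. The members and lists were chosen with earlier results of these data known. Doubtful libraries (Gh, Prl) were left out in an alternative added after seeing the data. Of the other marker lists, the endothelial list summed to 5.31 to 70.3 CPM and the immune list to 3.60 to 27.0 over all libraries. The fibroblast list summed to 56.4 to 437 and the motile cilium list to 12.3 to 24.8 CPM. Only 3 of 5 endothelial, 2 of 8 immune, 6 of 6 fibroblast and 4 of 5 motile cilium genes were tested, and none of them passed.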

Additional observations from a re-analysis of the deposited data

Results flagged for a closer look

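For each motor gene and group of 4 libraries, the gap between the highest or lowest library and its neighbour was compared with Dixon's critical value of 0.829; 8 of 84 gene and group pairs exceeded it, where chance gives about 1 in 20. In the Sst group, Kif1a was low in replicate 1 (2094 CPM, others 2432 to 2463), Dync1li2 was low in the same library (328.9 CPM, others 463.6 to 490.5), Kif13b was low in replicate 4 (7.255 CPM, others 20.12 to 20.95) and Kif18a was high there (6.439 CPM, others 0 to 0.2988). In the Trpv1 group, Kif3c was high in replicate 4 (169 CPM, others 81.48 to 91.06), Kif1a was low in replicate 3 (1674 CPM, others 2091 to 2134), Kif1c was high in replicate 1 (25.87 CPM, others 1.061 to 3.681) and Kif23 was high in replicate 2 (4.348 CPM, others 1.015 to 1.552).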

How the results depend on the processing

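Over 20 alternatives for each of 31 named motor genes (19 for Kif1c), 619 values in all, 582 kept their direction and their side of the threshold, 5 newly passed, 3 (all Kif21b) no longer passed and 29 changed sign. Kif21b was at 4.38 to 5.97, with adjusted p from 1.37e-05 to 0.0697, in the 19 settings other than the 4 libraries described next, where its only Trpv1 library had no count. With voom the 1 motor gene passed was Kif21a (0.47, adjusted p = 0.0321) in place of Kif21b. Of 200 values for the 10 adaptor and microtubule genes named, 41 no longer passed and none changed sign. The number of motor genes higher was 2 with no filter, 0 in the 6 libraries with Xist, 0 in the 4 libraries free of Gh and Prl beyond a single count (1 of them Trpv1), and 1 to 3 with a library left out (3 without Trpv1 replicate 4); the number lower was 1 with a term for Xist. Over all genes, 360 higher became 168 with the Xist term, 122 in the Xist libraries, 15 in the 4 libraries and 222 to 411 with a library left out (230 without Sst replicate 3, 222 without Trpv1 replicate 3), and 391 lower became 183 in the Xist libraries, 247 with the legacy quasi-likelihood fit, 37 in the 4 libraries and 222 to 347 (236, 240 and 222 without Sst replicates 1, 2 and 3). Adaptor genes higher numbered 1 with the Xist term, 1 in the Xist libraries and 0 in the 4 libraries; those lower numbered 2 with voom, 0 in the Xist libraries, 0 in the 4 libraries and 1 to 2 with a library left out (2 without Trpv1 replicate 1). Microtubule genes higher numbered 2 with DESeq2, 2 with voom, 0 in the 4 libraries and 1 to 2 (2 without Sst replicate 4); those lower numbered 3 with the replicate block, 3 with the Xist term, 2 in the Xist libraries, 0 in the 4 libraries and 3 to 6 (3 without Sst replicate 1, 2 or 3 or Trpv1 replicate 2 or 3). The cause of these changes was not tested in any setting.

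Values that changed sign were all below the threshold. With the Xist term these were Kif5a (-0.0081), Kif1c (1.03), Dync2h1 (0.00056) and Dynlt3 (-0.022); in the Xist libraries Kif1c (1.05) and Dync2h1 (0.028); with voom Kif5b (0.019), Dync1i1 (-0.054) and Dync1li2 (-0.099); with no filter Dync2h1 (0.017). In the 4 libraries, where the median of all genes shifted to 0.23, they were Kif5a (-0.22), Kif5b (0.20), Klc1 (-0.24), Kif3c (-0.00026), Kif1c (2.25) and Dynlt3 (-0.027). With a library left out the ranges were -0.18 to 0.065 for Kif5b, -0.21 to 0.028 for Kif3b, -1.56 to 1.26 for Kif1c, -0.57 to 0.10 for Kif13b, -0.057 to 0.33 for Dync1i1, -0.12 to 0.055 for Dync1li1 and -0.28 to 0.19 for Dync2h1.

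The deviations of same-numbered libraries from their group means correlated at 0.0063, 0.032, -0.030 and -0.020, and only Sst replicate 2 correlated best with its own number. Because the deviations were taken within each group, weak correlations cannot tell whether same-numbered libraries shared a picking session. With the replicate block Kif21b was at 4.86 (adjusted p = 0.00233), 1 motor gene passed and 572 of all genes passed. The scarce members had wide intervals and a wide spread between libraries; the part of depth was not tested.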
